A study of Mus musculus with 6 samples.

Results

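The genes described here encode secreted and membrane proteins first known from the steering of growing axons: the ligands Slit2 and Slit3 with the receptors Robo1 and Robo2, the netrins Ntn1 and Ntn4 with the receptors Unc5b and Unc5c, and the adhesion proteins Flrt2 and Flrt3. The 10 symbols were chosen by family name and were selected on a list drawn up with the genotype comparison of these same libraries known. Their genotype differences are therefore given as a description, and a call among them is no independent evidence. All 10 are among the 23337 gene rows of the count tables, and all 10 passed the filter on low counts, as did 13442 genes in all. RNA had been sequenced from stromal fibroblasts cultured from the mammary gland of C57BL/KaLawRij mice aged 7 weeks, 3 cultures per genotype. One group was homozygous for the cpdm allele of Sharpin (cpdm/cpdm, Sharpin deficient) and the other was wild type (wt/wt). The mutation is carried by all cells of the animal. Each culture pooled glands of 3 mice, was grown in serum until confluent and was collected before any passage, so replicates of a group are separate pools.

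SLIT proteins are large secreted ligands that bind ROBO receptors and mostly repel or restrain the cells that carry them. Netrins are laminin-related secreted proteins; netrin-1 acts through DCC, neogenin and the UNC5 receptors, and netrin-4 is also a basement membrane component that binds laminin. FLRT proteins have an extracellular leucine-rich repeat domain that binds UNC5 receptors and latrophilins, and they also associate with FGF receptors. In the mammary gland, SLIT2 with ROBO1, and netrin-1 with neogenin, are known for holding the cell layers of the duct together. SHARPIN belongs to the complex that builds linear ubiquitin chains, and it also inhibits integrins.

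Slit2 and Slit3 share a sequence feature that the choice of members did not use: each carries a hairpin of miR-218 inside an intron, on the same strand as the host gene. Mir218-1 lies at chr5:48223942-48224051 in intron 14 of Slit2, and Mir218-2 at chr11:35616816-35616925 in intron 14 of Slit3 (GRCm38, the same assembly as mm10, plus strand, introns counted in the longest coding transcript of GENCODE M21). Both give the same mature 5p sequence, which is shown because ROBO receptors are known targets of this miRNA. It is printed from RefSeq with the seed (bases 2 to 8) in capitals, and the first match to that seed in the 3′ UTR of Robo1 and of Robo2, 5′ to 3′ with the 7 matching bases in capitals, follows.
miR-218-5p: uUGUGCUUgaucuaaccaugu
Robo1 site: ggttttaaAAGCACAatcactaa
Robo2 site: ttggtgatAAGCACAaatctcta
The letters AAGCACA, read on the transcript strand, occur 8 times in the 3′ UTRs of 5 of the 10 members: 2 times each in Slit2, Robo2 and Ntn4 and 1 time each in Robo1 and Flrt3. Of 21020 genes with a 3′ UTR, 13.6% hold the letters. Since long UTRs hold more, the rate is also given: 2.72 matches per 10 kb over the members and 1.12 per 10 kb over all genes. The rate of the members rests on 8 matches. It includes those in Robo1 and Robo2, for which the seed was searched, so no enrichment is read from it. A match describes letters only, and mature miRNAs were not measured in these libraries.

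Library depth was even, at 13570649 to 15656196 counts assigned to genes. Sharpin itself was lower in every Sharpin-cpdm library, at 10.5, 9.13 and 9.51 CPM (counts scaled to the same total of gene rows in every library) against 24.5, 25.2 and 31.2 CPM in wild type. Libraries are given in the order of replicate numbers 1 to 3 throughout. Same-numbered libraries of the 2 genotypes deviated together from their group means, so each genotype comparison was fitted without and with the replicate number as a block. Without the block, 0 of 13442 genes (0%) passed a Benjamini-Hochberg adjusted p of 0.05 by quasi-likelihood in edgeR, and 307 had an unadjusted p under 0.05. DESeq2 without the block called 10 genes, none of them a member. With the block edgeR called 337 genes, 2.51% of those tested: 53 higher (0.394%) and 284 lower (2.11%) in Sharpin-cpdm. In that fit 2326 of the 13442 genes had an unadjusted p under 0.05. "Rose" and "fell" below refer to calls with the block.

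Of the 10 guidance genes, Flrt3 rose and Slit3 fell, and the other 8 did not pass. This count of 2 is read against the 2.51% of all genes, and since the genes were picked with this comparison known, nothing is read from it. Without the block 0 of the 10 were called by edgeR or DESeq2 (edgeR adjusted p 1.00 for each), and 2 had an unadjusted p under 0.05 in edgeR. The CPM of the genotypes did not overlap for Flrt3 and Slit3, and for 5.94% of all genes. Within same-numbered pairs 6 members moved 1 way in all 3 pairs, 2 upward and 4 downward, as did 41.1% of all genes. The median log2 fold change of the members was -0.14 with the block, beside -0.00168 for all genes. In bulk cultures, fewer cells of a type and less RNA per cell cannot be told apart.

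**Figure D1:**
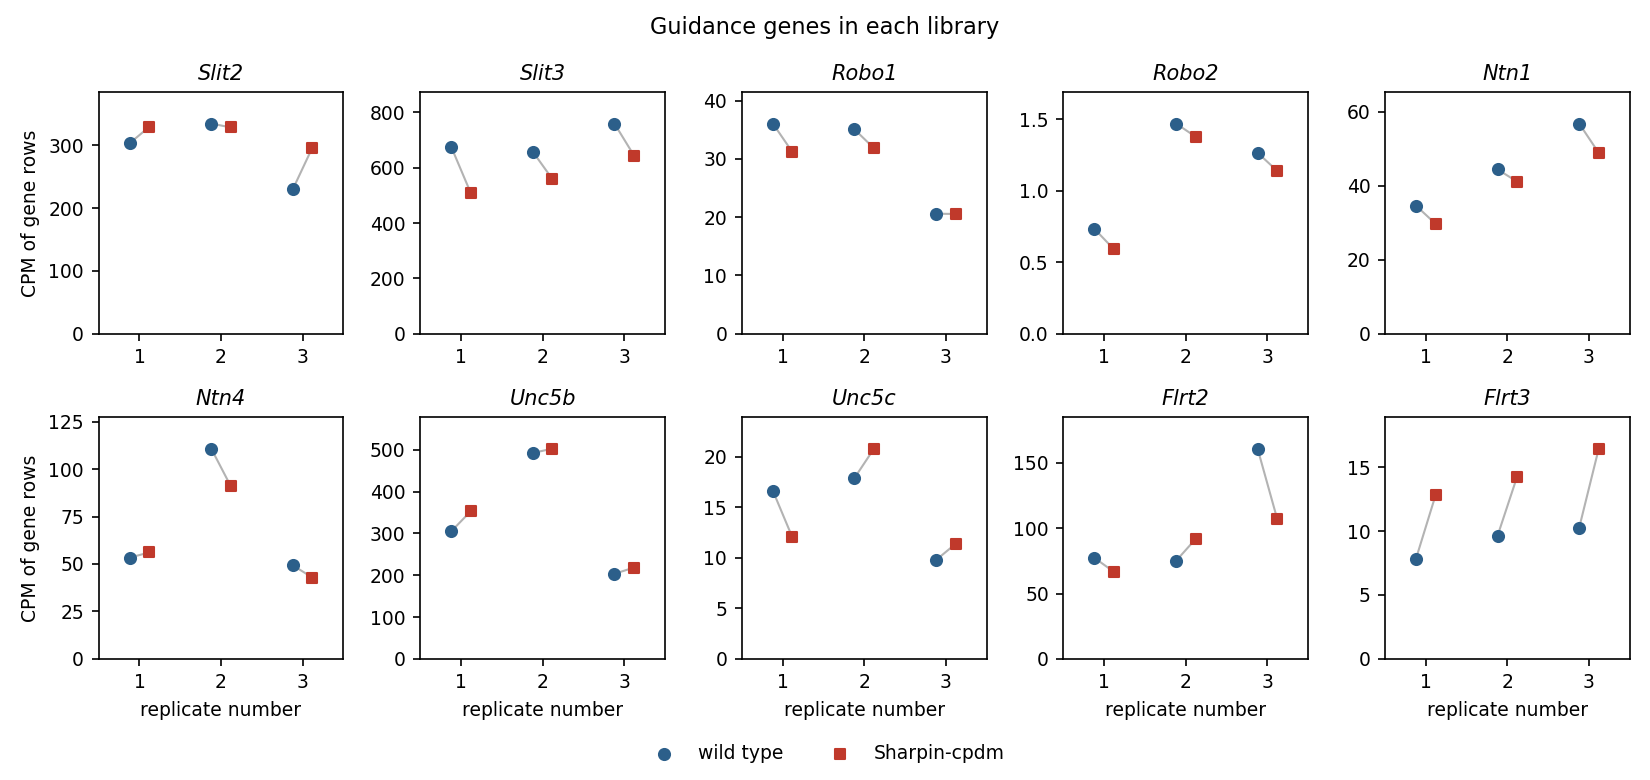
Each panel plots 1 guidance gene: CPM of gene rows (y axis, from 0) against replicate number (x axis), circles for wild type and squares for Sharpin-cpdm, with a line joining same-numbered libraries. Flrt3 squares lie above all circles (12.8 CPM or more against 10.3 CPM or less) and Slit3 squares lie below all circles, while Unc5b and Ntn4 are high in both libraries numbered 2.

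Levels between genes were compared per kilobase of the longest coding transcript, as means over all 6 libraries. Slit3 was the most abundant member, at 121 ± 17.0 CPM per kb (mean ± SD, n = 6), and its lowest library (97.1) lay above the highest of Unc5b (85.7). Unc5b followed at 58.9 ± 22.1 and Slit2 at 30.5 ± 3.94 CPM per kb. The next levels were 18.4 ± 7.46 for Ntn4, 13.6 ± 4.89 for Flrt2 and 7.25 ± 1.66 for Ntn1, and each of the neighbours from Slit2 to Ntn1 overlapped in range. Robo1 stood at 3.86 ± 0.918, Flrt3 at 2.99 ± 0.808 and Unc5c at 1.53 ± 0.449 CPM per kb, again with overlapping neighbours. Robo2 was lowest, at 0.127 ± 0.0415. The ranges of Slit3 and Unc5b, Unc5b and Slit2, Ntn1 and Robo1, and Unc5c and Robo2 did not overlap. Unc5b and Slit2 came close, with a lowest Unc5b library of 34.6 and a highest Slit2 library of 33.6 CPM per kb. With all annotated exonic bases as the length, Slit2 moved from rank 3 to rank 5, behind Ntn4 and Flrt2, and Flrt3 and Robo1 changed places. These cultures thus held more transcript for the ligands Slit2 and Slit3 than for their receptors Robo1 and Robo2. For the netrins Ntn1 and Ntn4, the receptor Unc5b stood above both ligands and the receptor Unc5c below both.

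Slit3, the more abundant of the SLIT ligands here, fell in Sharpin-cpdm. Its gene is on chromosome 11, plus strand, from 35121224 to 35708507 (mm10; GENCODE ENSMUSG00000056427.10). The Sharpin-cpdm libraries had 508, 559 and 644 CPM and the wild-type libraries 675, 658 and 759 CPM. All 3 mutant libraries lay below all 3 wild-type ones, with the highest mutant value close to the lowest wild-type value. Group means were 570 ± 68.7 and 697 ± 54.5 CPM (SD, n = 3). The log2 fold change was -0.31 ± 0.05 (SE) with the block (edgeR adjusted p 0.0394) and -0.30 ± 0.12 without it. Within the pairs the mutant level was 0.752, 0.850 and 0.848 of the wild-type level. The call was lost without pair 2 (edgeR adjusted p 0.127) and without pair 3 (0.160), at log2 fold changes of -0.35 and -0.32.

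Slit2, the ligand best known from mammary ducts, did not pass. It had 329, 328 and 296 CPM in Sharpin-cpdm and 303, 335 and 230 CPM in wild type. The ranges overlapped, and the mutant library was higher in pairs 1 and 3 and lower in pair 2. The log2 fold change with the block was 0.14 ± 0.07 and edgeR's adjusted p was 0.359. The quotient of Slit3 over Slit2, both per kb, was 2.94, 3.24 and 4.14 in the mutant and 4.24, 3.74 and 6.29 in wild type. It was lower in the mutant in all 3 pairs, at 0.693, 0.866 and 0.658 of the wild-type quotient, but the genotypes overlapped; it was not tested.

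The SLIT receptors did not pass. Robo1, a receptor of both ligands, had 31.2, 31.8 and 20.5 CPM in Sharpin-cpdm and 36.1, 35.1 and 20.6 CPM in wild type. Both libraries numbered 3 were low, whatever the genotype, and its log2 fold change with the block was -0.13 ± 0.07 (edgeR adjusted p 0.371). Robo2 had the fewest counts, 8 to 23 per library. Its summed 44 counts in Sharpin-cpdm correspond to a 95% Poisson interval of 0.756 to 1.40 CPM, and the 51 counts in wild type to 0.872 to 1.54 CPM. These exact intervals cover counting error only, and they overlap. Its log2 fold change was -0.17 ± 0.27 with the block.

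Neither netrin passed. Ntn1 encodes netrin-1, and its level was 29.7, 41.1 and 48.9 CPM in Sharpin-cpdm and 34.6, 44.4 and 56.8 CPM in wild type. The mutant library was the lower of each pair, while the genotypes overlapped. Ntn1 had a log2 fold change of -0.19 ± 0.06 with the block, an edgeR p of 0.0137 and, once adjusted, of 0.161. Ntn4, the basement membrane netrin, had 56.1, 91.0 and 42.8 CPM in Sharpin-cpdm and 53.4, 111 and 49.3 CPM in wild type. Its libraries numbered 2 were the highest of each genotype. The log2 fold change with the block was -0.15 ± 0.08 (edgeR adjusted p 0.361). Ntn4 over Ntn1, per kb, was 2.67 ± 1.12 in the mutant and 2.63 ± 1.32 in wild type (SD, n = 3).

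The UNC5 receptors, which bind netrin-1 and FLRT proteins, did not pass either. Unc5b, also known as a receptor of sprouting vessels, had 353, 503 and 218 CPM in Sharpin-cpdm and 305, 492 and 203 CPM in wild type. The mutant library was slightly higher in each pair, at 1.16, 1.02 and 1.07 times the wild-type level, whereas replicate number 2 exceeded number 3 by 2.36 times on average. Unc5b had a log2 fold change of 0.10 ± 0.05 with the block and 0.10 ± 0.42 without it, where edgeR gave adjusted p of 0.354 and 1.00. Unc5c had 12.01, 20.8 and 11.4 CPM in Sharpin-cpdm and 16.6, 17.9 and 9.77 CPM in wild type. It was lower in the mutant in pair 1 and higher in pairs 2 and 3, and its log2 fold change was -0.02 ± 0.15 with the block. Of its annotated exonic bases 0.617% overlap Gm15688, a gene on the opposite strand; no other member shares exonic bases with another gene.

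Flrt3 rose in Sharpin-cpdm and had the largest genotype difference of the 10. The gene is on chromosome 2, minus strand, from 140650914 to 140671469 (mm10; GENCODE ENSMUSG00000051379.12). Its level was 12.8, 14.3 and 16.5 CPM in Sharpin-cpdm and 7.84, 9.64 and 10.3 CPM in wild type. All mutant libraries lay above all wild-type libraries, from 174 to 246 counts against 107 to 151. Flrt3 had means of 14.5 ± 1.83 and 9.25 ± 1.26 CPM (SD, n = 3). The log2 fold change with the block was 0.64 ± 0.10, or 1.56-fold (edgeR adjusted p 0.0299), and the pairs gave 1.63, 1.48 and 1.60-fold. Without pair 2 and without pair 3 the adjusted p was 0.123 and 0.177 by edgeR on the other pairs, at log2 fold changes of 0.67 and 0.64, and DESeq2 with the block gave 0.0638.

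The 250 bases before the RefSeq start of Flrt3 (chr2:140671477-140671726, GRCm38.p6, minus strand) are shown as the start region of the member with the largest difference. They are printed 5′ to 3′, with the only match to the searched motifs in capitals.
Flrt3 start region: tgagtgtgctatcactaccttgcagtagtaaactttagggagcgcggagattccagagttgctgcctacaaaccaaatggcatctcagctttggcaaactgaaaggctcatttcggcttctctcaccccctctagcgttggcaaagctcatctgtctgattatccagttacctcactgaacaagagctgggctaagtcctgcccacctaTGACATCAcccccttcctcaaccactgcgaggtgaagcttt
Both strands were searched for 6 motifs, chosen with the genotype results known: TGACNTCA, which resembles the cAMP response element; GGGCGG, the box bound by Sp factors; TATAAA, the letters of the box near many start sites; CCAAT, the box bound by NF-Y factors; the loosest form of the NF-kappaB motif, with 3 G, 5 free bases and then a pair of C; and GGAATG, the motif of TEAD factors. TGACNTCA occurs in 8.83% of the 32851 promoter windows of 300 bases in the RefSeq table, and among the 11 windows of the 9 members in that table it occurs in that of Flrt3 alone. The windows of Slit2, Slit3, Ntn4 and Unc5b held 3, 6, 4 and 3 matches to GGGCGG (35.7% of all windows hold at least 1), and TATAAA occurred in that of Slit2 alone (13.6% of all). G and C made up 78.3% of the Slit3 window, 68.0% of the Slit2 window and 51.3% of the Flrt3 window, where the median of all windows was 52.7%. The NF-kappaB-like motif, held by 50.8% of all windows, matched 4 times in Unc5b, 2 times each in Slit2, Slit3, Robo1 and 1 of the 3 windows of Robo2, 1 time each in Ntn4 and Flrt2, and 0 times in Unc5c and Flrt3. CCAAT (37.4% of all windows) matched in no member, and GGAATG (14.7%) in 1 of the 3 windows of Robo2. These matches describe letters and name no binding site.

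Flrt2, which like Flrt3 binds UNC5 receptors, did not pass. It had 66.5, 91.8 and 107 CPM in Sharpin-cpdm and 77.3, 75.0 and 161 CPM in wild type. The genotypes overlapped, and pair 2 went up in the mutant where pairs 1 and 3 went down. Flrt2 had a log2 fold change of -0.19 ± 0.16 with the block, and edgeR's adjusted p was 0.599. Flrt2 over Flrt3, per kb, was 2.91, 3.60 and 3.65 in the mutant and 5.52, 4.36 and 8.79 in wild type. These quotients did not overlap, and they rest on the same Flrt3 counts as above.

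**Figure D2:**
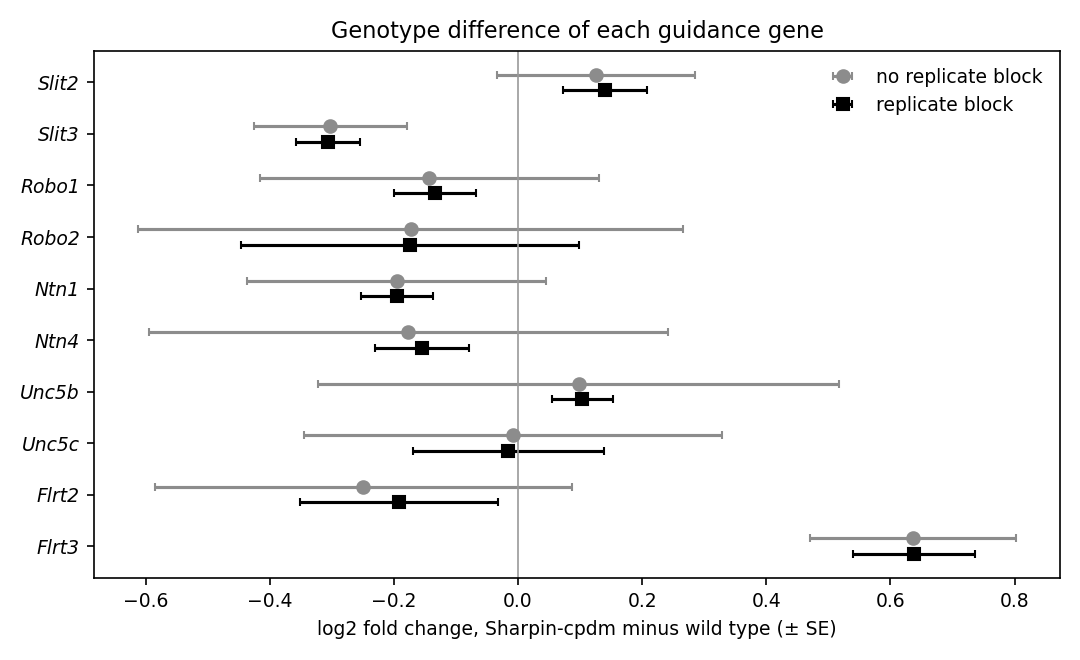
Log2 fold change of each guidance gene, Sharpin-cpdm minus wild type (x axis), with bars of 1 SE, from edgeR without the replicate block (grey circles) and with it (black squares), 3 libraries per genotype. Estimates hardly differ between the fits, while the SE of Unc5b is 0.42 without the block and 0.05 with it.

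For 8 of the 10 genes, replicate number went with far more of the variation than genotype did. The sum of squares of log2 CPM over the 6 libraries was split into genotype (1 degree of freedom), replicate number (2) and the rest (2). Replicate number took between 74.1% and 98.6% for these 8, highest for Unc5b. Genotype took 79.7% for Flrt3 and 64.6% for Slit3, and at most 13.2% for the others. The median share of replicate number was 87.0% over the 10 members and 72.9% over all genes tested, and nothing particular to the members is read from this. Between pair means, Unc5b varied 2.36-fold, Ntn4 2.19-fold and Robo2 2.15-fold, but Slit3 1.19-fold, Slit2 1.26-fold and Flrt3 1.29-fold. The members did not follow 1 order: Slit2, Robo2, Unc5b, Unc5c and Ntn4 were highest in pair 2, Slit3, Ntn1, Flrt2 and Flrt3 in pair 3, and Robo1 in pair 1. What a replicate number stands for is not given in the labels.

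**Figure D3:**
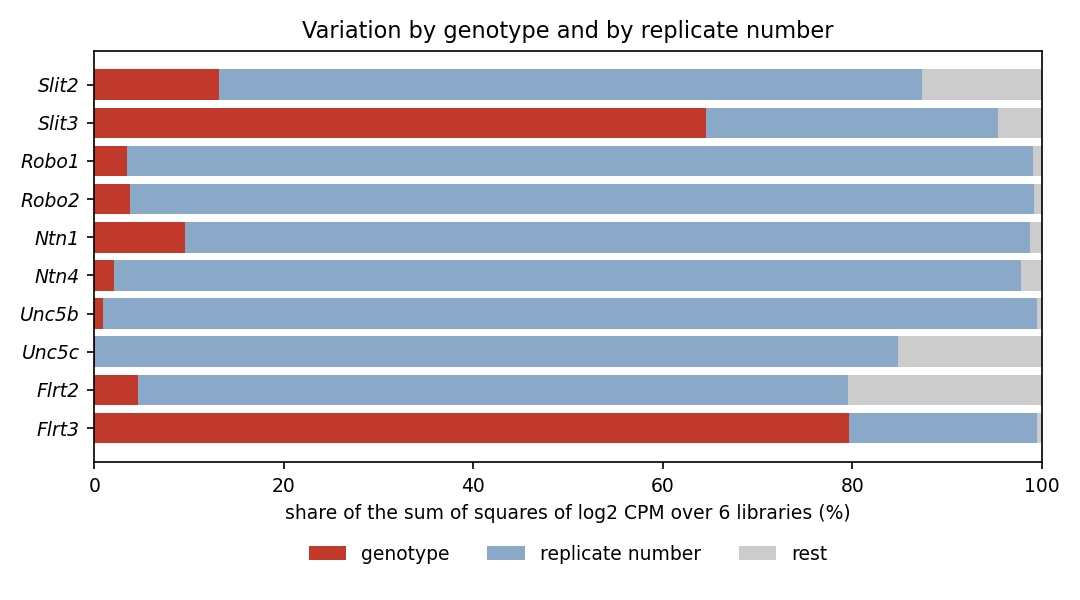
Share of the sum of squares of log2 CPM (x axis, percent) that goes with genotype, replicate number and the rest, 1 bar per guidance gene over 6 libraries. Genotype takes more than replicate number for Flrt3 and Slit3, and replicate number takes 74.1% or more for the other 8.

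Among all tested genes with a mean of at least 1 CPM, Dclk2 and Sipa1l2 had the profiles most like that of Slit3. The root mean square difference of their mean-centred log2 CPM from Slit3 over the 6 libraries was 0.0445 and 0.0527. Sipa1l2 fell, at -0.33 ± 0.05 on the log2 scale (edgeR adjusted p 0.0235), and Dclk2 had -0.34 ± 0.15 (0.330). Nearest to Flrt3 were Ttyh1 and Chst10, at 0.0776 and 0.104, with log2 fold changes of 0.59 ± 0.13 (edgeR adjusted p 0.0849) and 0.57 ± 0.25 (0.307) in the same fit. These genes were picked by profile over the same 6 libraries, so fold changes near those of Slit3 and Flrt3 follow from the choice.

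The other guidance genes were taken from 5 lists by family, 112 genes in all, of which 111 were in the tables and 97 were tested. With the block 8 of the 97 fell, 0 rose and 89 did not pass, where 2.11% of all genes fell and 0.394% rose. Without it 0 passed by edgeR or by DESeq2, and 12 had an unadjusted p under 0.05 in edgeR (307 of 13442 over all genes). Their median log2 fold change was -0.05, and 37 of the 97 were above 0, beside -0.00168 and 6652 of 13442 for all genes. The 14 untested genes had at most 16 counts in any library; they include the netrin receptor Dcc (0 to 6 counts), Robo3 (1 to 2) and Flrt1 (3 to 9), which were singled out after their counts were seen. Leaving out pair 1, 2 or 3 gave 13 calls (2 higher, 11 lower), 2 (Robo4 and Sema5a) and 0.

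Of 23 other Slit-Robo pathway genes, Robo4 alone fell. Robo4, the ROBO receptor of endothelial cells, had 14.7, 21.3 and 20.7 CPM in Sharpin-cpdm and 23.8, 38.3 and 44.1 CPM in wild type. No mutant library reached the lowest wild-type one, and the log2 fold change with the block was -0.90 ± 0.10 and edgeR's adjusted p was 0.0110. The median of this list was -0.00367. For 16 netrin pathway genes the blocked edgeR fit gave 0 calls, 3 had an unadjusted p under 0.05, DESeq2 with the block also gave 0, and the median was -0.02. The smallest p belonged to Adora2b, an adenosine receptor reported to bind netrin-1 (-0.46 ± 0.11, adjusted p 0.0994), and Rgma, a neogenin ligand (-0.32 ± 0.09, 0.157). None of 9 FLRT partners passed by edgeR with the block, with a median of -0.05 and 3 unadjusted p under 0.05. These counts of unadjusted p stand beside 2326 of all 13442 genes in the same fit. Rnd1, a small GTPase that binds FLRT3, had -0.49 ± 0.11 (adjusted p 0.0793) and Odz3, the teneurin-3 gene, 0.44 ± 0.10 (0.0956); DESeq2 with the block called Odz3 (adjusted p 0.0341).

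Of 31 semaphorin, plexin and neuropilin genes 6 fell and 0 rose, where 2.11% of all genes fell and 0.394% rose. The median log2 fold change of the 31 was -0.23, and DESeq2 with the block called 4 of them. Sema5a, a transmembrane semaphorin, went from 38.0 ± 9.09 CPM in wild type to 26.02 ± 4.78 CPM in Sharpin-cpdm (-0.55 ± 0.07, edgeR adjusted p 0.0195). The secreted semaphorins Sema3f and Sema3g had -0.62 ± 0.09 and -0.76 ± 0.11, with adjusted p of 0.0273 and 0.0279. The other 3 were Sema3a, Sema6d and Plxnd1, with log2 fold changes of -0.57, -0.40 and -0.34; they are named because they complete the count, after a look at their values. Of 18 ephrin and Eph genes, Efna1 alone fell, from 24.6 ± 6.63 to 14.9 ± 2.60 CPM (-0.72 ± 0.11, edgeR adjusted p 0.0282). The median of these 18 was -0.06. The CPM of the genotypes overlapped for Efna1, Sema5a, Sema3f, Sema3g, Sema6d and Plxnd1, and did not overlap for Sema3a.

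**Figure D4:**
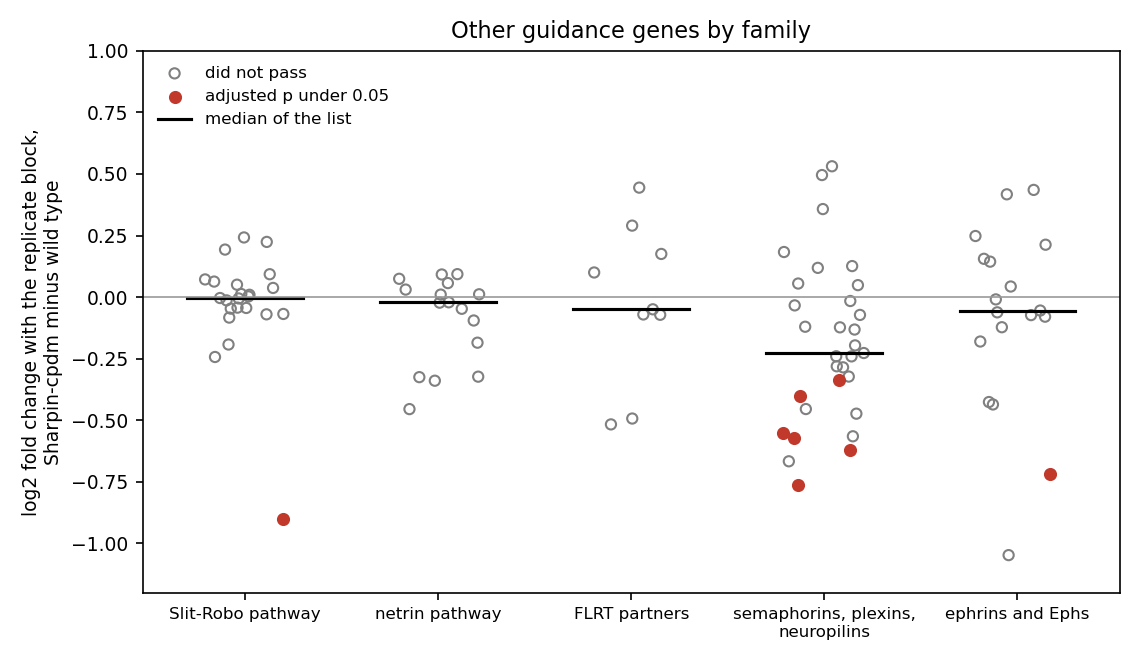
Log2 fold change with the replicate block, Sharpin-cpdm minus wild type (y axis), of 97 other guidance genes in 5 families (x axis). Filled points passed an adjusted p of 0.05, open points did not, and bars are list medians: the 8 filled points all lie below 0, 6 of them among semaphorins and plexins.

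Marker genes of other cell types were also counted, and their calls stand beside the 2.11% of all genes that fell and 0.394% that rose. Among the 19 for endothelium, 15 fell and 0 rose, with a median log2 fold change of -0.78. Their summed level was 615 to 904 CPM in Sharpin-cpdm and 804 to 1425 CPM in wild type, and none was at 0 in all libraries. Robo4, Sema3g, Plxnd1 and Efna1 are also expressed by vessels, and the part of endothelial RNA in their fall, or in the levels of Unc5b and Slit3, was not tested. Of the Schwann cell and neural markers reported here, Tubb3 rose (0.37), with 195 to 267 CPM in the mutant and 154 to 208 CPM in wild type for the summed list. Of that list Snap25 was at 0 in all libraries and Elavl3 had at most 3 counts in any; its part in the rise of Flrt3 was not tested. Of 9 tested pericyte markers 3 fell and 0 rose, with a median log2 fold change of -0.40 (1844 to 2117 against 1994 to 2464 CPM for the summed list). None of 10 epithelial or 9 macrophage markers had a call by edgeR or DESeq2 with the block. Their summed lists had 212 to 449 against 317 to 557 CPM and 137 to 344 against 71.6 to 405 CPM. Of each list 1 gene had an unadjusted p under 0.05 in edgeR with the block, and the medians were -0.36 and 0.05. The 10 fibroblast markers summed to 58021 to 72571 CPM in the mutant and 61104 to 82842 CPM in wild type. None was at 0 in all libraries, and Dcn, Lum and Fap fell among them. Their median log2 fold change with the block was -0.23, and 2 of the 10 were above 0. In edgeR with the block 8 of the 10 had an unadjusted p under 0.05. The sums of the marker lists do not measure shares of cells.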

How the data were processed

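For each library the authors deposited raw counts, whole numbers by gene symbol. HTSeq 0.5.4p3, TopHat2 2.0.10, bcl2fastq 1.8.4 and the mm10 build are named in the submitters' processing notes; the role of each tool, the annotation and the strand setting are not given in the sources used here, so reads of overlapping genes on opposite strands may be mixed. The kit (TruSeq RNA v2) does not mark strand. The 5 summary rows, 48.8% to 51.2% of all entries, were left out.

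CPM used totals of gene rows. Counts were filtered with filterByExpr by group, scaled by TMM and tested across all genes in edgeR 4.0.16 (R 4.3.3, limma 3.58.1) by the quasi-likelihood F-test, two-sided, with Benjamini-Hochberg adjustment and a threshold of 0.05; DESeq2 1.42.0 was an alternative. SEs were derived from the log2 fold change and the F statistic. Log2 CPM had a prior count of 2. Deviations from the group means correlated at 0.457, 0.809 and 0.737 across genes (not independent replicates) for same-numbered libraries and at 0.00676 or below otherwise, so the numbers were taken as pairs; this comes from the data, not the labels. Library pairs of a group differed beyond sampling noise (chi-square per degree of freedom of at least 16.9). On simulated data for this comparison (13442 genes, 1.5, 2 and 4-fold changes), 73.4%, 91.3% and 100% were recovered with the block and 3.13%, 33.3% and 79.1% without; there were 15 and 0 false calls, and the simulation assumed pairs.

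Members, gene lists and tests were chosen with earlier results of these data known. Named genes are the 10 members, Sharpin, up to 3 called genes of each other guidance list with the smallest p (2 where none was called), and the 2 genes nearest in profile to each called member. Gene positions are from GENCODE M21, and promoters and miRNAs from RefSeq (GRCm38.p6). The value of 1 Schwann cell marker is not reported here.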

Additional observations from a re-analysis of the deposited data

How the results depend on the processing

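Flrt3 was higher and Slit3 lower in Sharpin-cpdm under all 18 alternatives (log2 fold changes of 0.52 to 0.73 and of -0.38 to -0.22), but Flrt3 passed in 5 and Slit3 in 6 of the 8 alternatives with the replicate block and in none of the 10 without it. No other member passed under any alternative. Counts of called genes without the block were 0 in edgeR for every scaling, filter and left-out library, and 10 in DESeq2. With the block they were 337 (8 of the other guidance genes) as reported, 336 (8) with RLE size factors, 365 (8) with gene row totals only, 502 (13) without the low-count filter and 341 (7) in DESeq2. Leaving out pair 1, 2 or 3 gave 673 (13), 128 (2) and 44 (0). The share of lower calls rose to 93.0% without pair 2 and to 93.2% without pair 3, from 84.3%, and was 79.2% without pair 1 and 76.9% without the low-count filter. Directions that turned when 1 library was left out of the fit without the block have these ranges of log2 fold change: Slit2 -0.016 to 0.26, Robo1 -0.36 to 0.049, Robo2 -0.46 to 0.11, Ntn4 -0.57 to 0.32, Unc5b -0.26 to 0.51, Unc5c -0.37 to 0.17, Flrt2 -0.43 to 0.21 and Rgma -0.71 to 0.017. With the block, Unc5c was 0.21 without pair 1 and Flrt2 0.045 without pair 3. The cause was not tested. Robo2 had the fewest counts of the members, 8 to 23 per library, and the part of depth in its missing call was not tested.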
